A study of Saccharomyces cerevisiae with 12 samples.

Results

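The late effect of induced YOX1 was measured in 4 of the 12 libraries of an RNA-seq series of Saccharomyces cerevisiae: both libraries of cells carrying the YOX1 vector and both libraries of cells carrying the control vector, taken 4 h after galactose and hydroxyurea (HU) were added. They were chosen by their labels alone, and the 8 other libraries (both vectors untreated and at 2 h, 2 libraries each) serve to estimate the spread and to set the 4 h effect against the earlier ones. All cells were wild-type BY4741, a MATa laboratory strain. The YOX1 vector was pBY011-YOX1, a plasmid with YOX1 behind the galactose-inducible GAL1-10 promoter, and the control vector was the empty plasmid pBY011. Both strains grew in medium without uracil and with 2% raffinose, and both received 2% galactose together with 200 mM HU, so that at 4 h the strains differed in the plasmid and not in the carbon source or the drug. Fragments from the plasmid and from the chromosomal copy of YOX1 fall in a single entry and cannot be told apart in these data.

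Yox1 is a homeodomain repressor. With its paralog Yhp1 it joins the MADS-box protein Mcm1 at early cell cycle boxes, promoter elements that drive transcription around the transition from mitosis to G1, and holds those genes down through the rest of the cycle. Mcm1 also works with forkhead proteins at the genes of mitosis and with mating-type regulators at the a-specific genes, the set that gives a MATa cell its mating identity. HU inhibits ribonucleotide reductase, starves replication of deoxynucleotides and sets off the replication checkpoint. The study induced YOX1 during HU treatment to ask which transcripts an excess of this repressor lowers under replication stress.

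YOX1 stood at 2599 and 2458 FPKM (mapped fragments scaled to transcript length and to library depth) with the YOX1 vector at 4 h, against 40.8 and 40.7 FPKM with the control vector. All values of the strain with the YOX1 vector lay far above those of the control strain, and the log2 change was 5.88 ± 0.10 (SE, adjusted p = 6.34e-08; limma over all genes tested, with Benjamini-Hochberg adjustment, as for every adjusted p here). The untreated strains already differed, with 91.3 and 90.9 FPKM with the YOX1 vector and 30.8 and 29.8 FPKM with the control vector before galactose. GAL1, which encodes galactokinase and shares the inducing promoter, had 5317 and 4706 FPKM with the YOX1 vector and 5250 and 5523 FPKM with the control vector, overlapping values. HUG1, an inhibitor of ribonucleotide reductase that the checkpoint induces, had 5416 and 6522 FPKM with the YOX1 vector and 3976 and 6492 FPKM with the control vector, which also overlap. URA3, the plasmid marker, had 283 and 323 FPKM with the YOX1 vector against 361 and 337 FPKM with the control vector, a log2 change of -0.25 (adjusted p = 0.201).

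The depth that the deposited intervals imply was 9659000 to 18060000 fragments over the 12 libraries, and 9659000 and 11720000 for the YOX1 vector at 4 h against 11670000 and 12280000 for the control vector. The libraries of a group correlated at r = 0.9545 to 0.9736 across genes. LEU2, deleted in this strain, was listed at 0 in all 12 libraries, and MET17, also deleted, at no more than 0.391 FPKM. HIS3, a further marker taken as deleted in BY4741, was listed at 41.1 to 94.0 FPKM in the 12 libraries. What gives its reads was not tested. The MATa genes were present in all 12 libraries (MFA1 at 175 to 1449 FPKM, STE2 at 98.7 to 256 FPKM), and of the 4 alpha-specific genes MF(ALPHA)1 reached at most 5.57, STE3 7.6, SAG1 17.7 and MF(ALPHA)2 20.6 FPKM in any library.

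Of 6806 genes tested at 4 h, 304 were lower (4.47%) and 134 were higher (1.97%) with the YOX1 vector, in all 438 genes or 6.44%. The median log2 change was -0.53 among the lower genes and 0.41 among the higher genes, beside 0.01 over all genes tested. At least a 2-fold change was seen in 72 lower and 14 higher genes, so that larger changes were mostly decreases, as the plot of change against level shows. At an unadjusted p under 0.05 there were 1403 genes. The libraries of the 2 strains did not overlap in any called gene, and they did not overlap in 49.1% of all genes tested, since 2 libraries against 2 separate easily. A fit on the 4 libraries at 4 h alone, with fewer degrees of freedom, called 78 lower and 16 higher genes, of which 76 and 10 were among those above. Without scaling between libraries the split was 230 lower and 208 higher, or 52.5% lower in place of 69.4%.

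**Figure D1:**
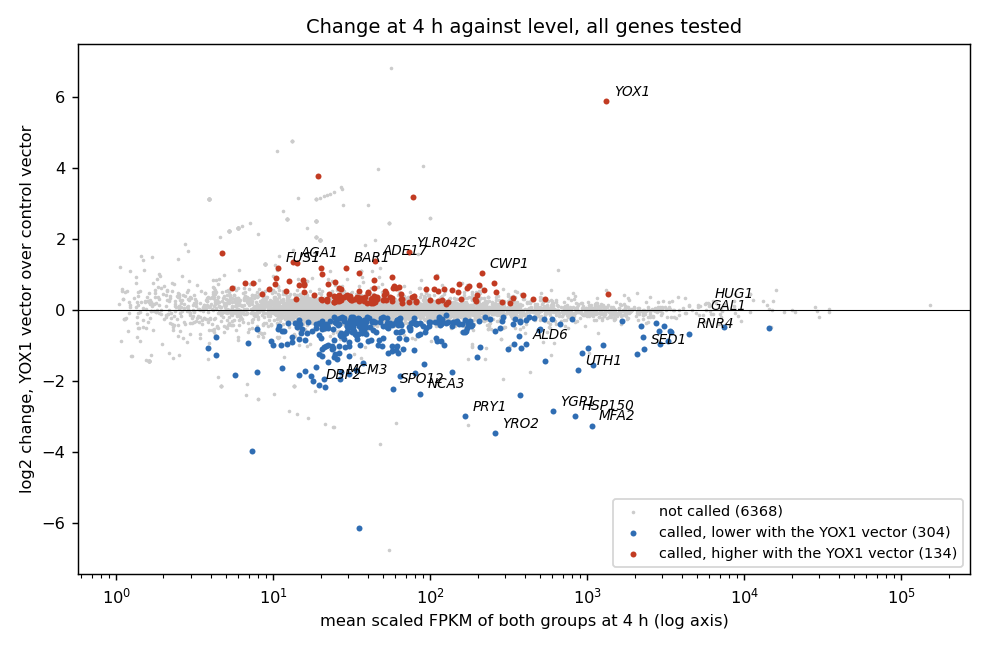
Log2 change at 4 h (YOX1 vector over control vector, on log2 of scaled FPKM + 1) against the mean scaled FPKM of both groups on a log axis, 1 point for each of the 6806 genes tested. The 304 lower genes reach larger changes than the 134 higher genes, with YOX1 itself at 5.88 the highest of the called genes, while HUG1 and GAL1 lie near 0.

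**Figure D2:**
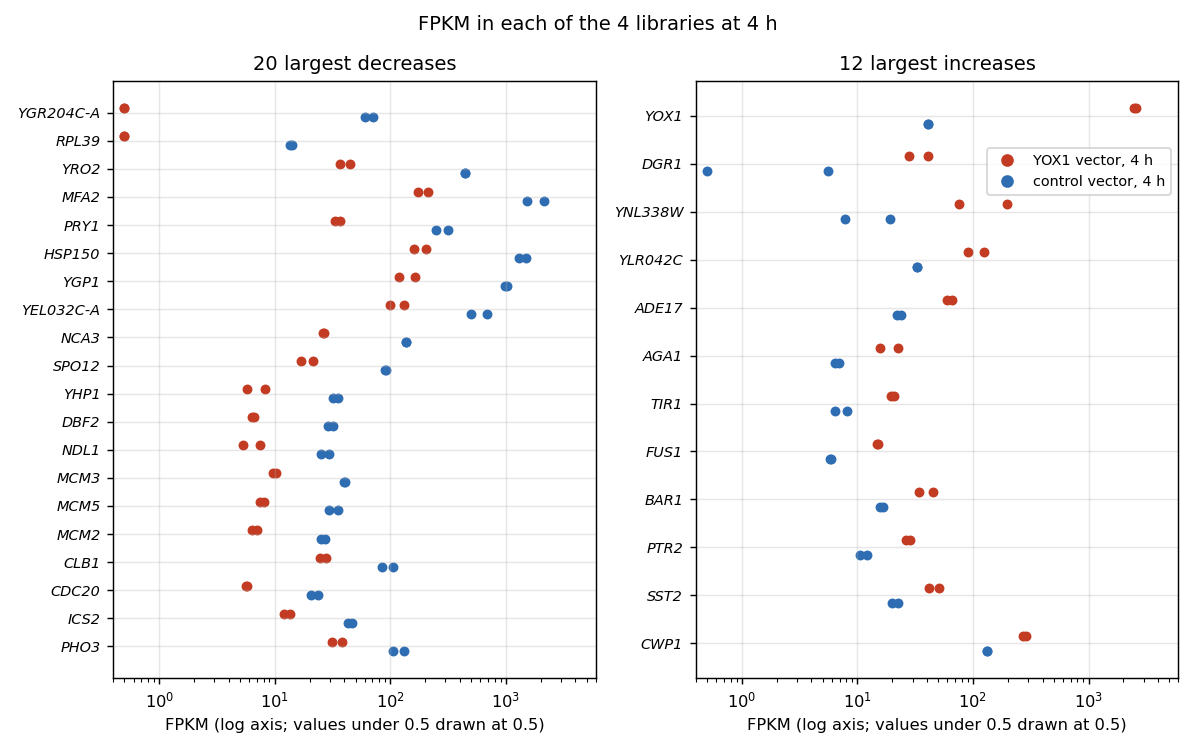
FPKM on a log axis in each of the 4 libraries at 4 h for the 20 largest decreases and the 12 largest increases. They were taken from called genes that average 10 FPKM or more in 1 of the strains and whose libraries do not overlap between strains. Each gene has 2 points for the YOX1 vector above 2 points for the control vector, and values under 0.5 FPKM are drawn at 0.5.

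The 6 subunits of the MCM helicase, which is loaded onto origins in G1 and unwinds DNA at the replication fork, were all lower with the YOX1 vector. MCM3 had 9.60 and 10.3 FPKM with the YOX1 vector against 40.5 and 40.1 FPKM with the control vector, a 3.89-fold decrease. MCM5 had 7.44 and 8.11 FPKM with the YOX1 vector against 34.9 and 29.4 FPKM with the control vector. In both genes the strains were well apart and the libraries of a strain close together. Their log2 changes were -1.96 ± 0.064 for MCM3 (adjusted p = 2.73e-06) and -1.96 ± 0.091 for MCM5 (adjusted p = 1.43e-05; SE). MCM2 fell by 1.87, MCM4 by 1.74, MCM7 by 1.49 and MCM6 by 1.24 on the log2 scale (adjusted p = 1.61e-05, 2.73e-06, 4.75e-05 and 3.03e-05). The factors that load the helicase did not follow. CDC6 had 51.4 and 54.9 FPKM with the YOX1 vector against 52.9 and 49.9 FPKM with the control vector (log2 change 0.01), and TAH11, the yeast Cdt1, had a log2 change of 0.23 (adjusted p = 0.227). None of the 6 genes of the origin recognition complex, the platform for loading, passed the test, with log2 changes of -0.12 to 0.08. All 6 helicase calls were also made on the 4 libraries at 4 h alone and without any single one of them. MCM3 overlaps the dubious reading frame YEL032C-A, which was itself lower (log2 change -2.39), and these libraries do not keep the strand, so the fragments in that stretch cannot be assigned to either.

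Among 7 regulators known for early cell cycle boxes, 5 were lower and 0 were higher, 71.4% beside 6.44% called among all genes tested. The median log2 change was -0.78. SPO12, a regulator of mitotic exit, had 21.6 and 16.9 FPKM with the YOX1 vector against 89.7 and 90.9 FPKM with the control vector, a log2 change of -2.23 (adjusted p = 1.75e-05). YHP1, the paralog of YOX1, had 5.71 and 8.16 FPKM with the YOX1 vector against 31.9 and 35.3 FPKM with the control vector, a log2 change of -2.19 (adjusted p = 0.000225). Both were low in each YOX1 library. CDC20, an activator of the anaphase-promoting complex, fell by 1.84, FAR1, which arrests the cycle in response to pheromone, by 0.78, and SWI4, the DNA-binding subunit of the G1 factor SBF, by 0.65 on the log2 scale (adjusted p = 7.57e-06, 0.00774 and 0.000859). CLN3, the G1 cyclin at the head of the pathway, had 91.5 and 87.1 FPKM with the YOX1 vector against 98.8 and 96.3 FPKM with the control vector and did not pass the test (adjusted p = 0.116). MCM1 itself had 103 and 109 FPKM with the YOX1 vector against 98.1 and 116 FPKM with the control vector, overlapping values. Its forkhead partner FKH2 was lower (log2 change -0.72, adjusted p = 0.00268). On the 4 libraries at 4 h alone, 3 of the 7 regulators were called lower. FAR1, SWI4 and FKH2 did not pass there (adjusted p = 0.128, 0.0572 and 0.0585).

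The upstream sequence of these genes was searched for the letters of a Mcm1 dyad, TTNCC and GGNAA with 6 bases of any kind between them. The pattern reads the same on both strands. The search covered the 500 bases before the start codon on the R64 reference genome, whose coordinates are those of the deposited tables. Early cell cycle boxes hold such a dyad, but the letters do not tell them from other Mcm1 sites, such as those of the a-specific genes. The windows of MCM3, MCM5, MCM6, SPO12, MFA2 and HSP150, genes that were lower, are shown beside those of BAR1 and STE2, which were higher, and of CDC6, which was not called, because they carry the same letters. Each window has 30 bases on the strand of the gene with the dyad in capitals.
MCM3, chrV:86745-86774, plus strand: aattactTTTCCTAAATGGGTAAaaactcg
MCM5, chrXII:691394-691423, plus strand: tggcgtgTTTCCCTTTTAGGAAAagtgatt
MCM6, chrVII:121063-121092, minus strand: tattaaaTTTCCTTTTTAGGAAAagcgcct
SPO12, chrVIII:401182-401211, plus strand: aatatctTTTCCTAATTTGGAAAtatgtaa
MFA2, chrXIV:352163-352192, plus strand: catgtatTTACCTATTCGGGAAAtttacat
HSP150, chrX:120059-120088, plus strand: cttactaTTTCCTATTTCGGAAAttattaa
BAR1, chrIX:322078-322107, plus strand: catgtaaTTACCGTAAAAGGAAAttacatg
STE2, chrVI:82352-82381, plus strand: atgtaaaTTTCCTAATTGGGTAAgtacatg
CDC6, chrX:69138-69167, plus strand: gtcggagTTTCCAGATCAGGAAAttaccca
The dyad begins 185 bases before the start codon in MCM3, 154 in MCM5, 178 in MCM6, 245 in SPO12 and 244 in MFA2. HSP150 holds a further dyad 288 bases before its start codon, MCM7 holds 2, at 229 and 213 bases, and CDC6 holds a further one at 177 bases.

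The dyad was found before 113 of 5892 genes tested with a window (1.92%), before 37 of 290 lower genes (12.8%), before 17 of the 68 lower genes with at least a 2-fold change and before 4 of 129 higher genes (3.1%). Read the other way, 32.7% of the 113 genes with the dyad were lower, against 4.38% of 5779 genes without it. The median log2 change was -0.07 with the dyad and 0.01 without it, so most genes that carry these letters moved little. Among the lower genes with the dyad were CDC20, HST4, PIR3, UTH1, MSA1, HOF1, GPA1, FAR1 and SWI4, and the 4 higher genes were BAR1, AGA2, STE2 and ELO1. No dyad was found in the window of YHP1, though it was lower and is among the regulators known for early cell cycle boxes. Nor was a dyad found in the windows of MCM2, MCM4, CLB1, CLB2, YRO2, YGP1 or NCA3, though all 7 were lower. The homeodomain core TAATTA, searched on both strands, was found before 32.4% of the lower, 26.4% of the higher and 25% of all genes, and TAATTG before 42.4%, 31.0% and 34.7%. These 6 letters lie inside or beside the dyad in some windows, such as that of STE2, so the searches are not independent. The forkhead core GTAAACA was found before 13.8% of the lower, 9.3% of the higher and 10.4% of all genes. The cores of the G1 elements are the Swi4 box CGCGAAA and the MluI box ACGCGT. They were found before 11% and 10% of the lower, 4.65% and 5.43% of the higher, and 5.84% and 5.43% of all genes. A gene can hold both cores, as MCM5 does. Divergent genes share part of their windows, and a match is a description of the sequence.

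**Figure D3:**
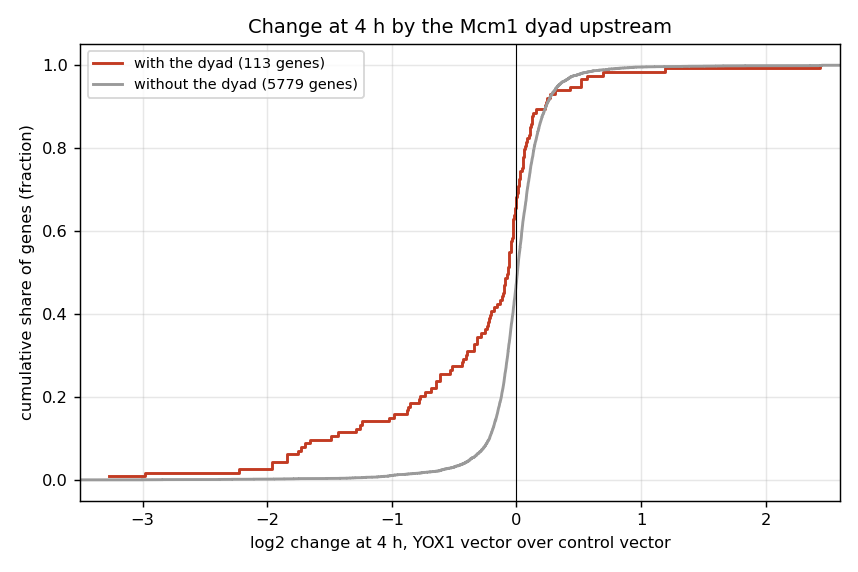
Cumulative share of genes by log2 change at 4 h (YOX1 vector over control vector) for the 113 genes with the Mcm1 dyad in the 500 bases before the start codon and for the 5779 genes without it; changes beyond the axis are not drawn. The curve of genes with the dyad rises earlier on the negative side, where 32.7% of them were called lower, and the medians are -0.07 and 0.01.

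The CLB2 cluster is the set of genes transcribed in G2 and M phase by Mcm1 with the forkhead protein Fkh2 and the coactivator Ndd1. Of its 20 members 14 were lower and 0 were higher, 70% beside 6.44% called among all genes tested. The median log2 change was -0.86. CLB1, a mitotic cyclin, had 27.9 and 24.4 FPKM with the YOX1 vector against 105 and 85.1 FPKM with the control vector, a log2 change of -1.86 (adjusted p = 5.97e-05). SWI5, a transcription factor of late mitosis, had 16.4 and 16.7 FPKM with the YOX1 vector against 43.6 and 39.1 FPKM with the control vector, a log2 change of -1.31 (adjusted p = 6.76e-06). The 2 strains were apart in both genes. CLB2, the main mitotic cyclin, had 25.2 and 20.4 FPKM with the YOX1 vector against 50.9 and 40 FPKM with the control vector, a log2 change of -1 (adjusted p = 0.00502). The kinase gene KIN3 fell by 1.61, IQG1 and MYO1, which build the contractile ring, by 1.47 and 1.23, BUD8 by 1.08 and HOF1 by 0.98 on the log2 scale. Polo kinase CDC5, with 29.8 and 27.8 FPKM with the YOX1 vector against 40.4 and 31.5 FPKM with the control vector, was not called (adjusted p = 0.15), and neither were ASE1, BUD3, HST3, MOB1 and NUM1. DBF2, the kinase of the mitotic exit network, is outside the list and had 6.65 and 6.37 FPKM with the YOX1 vector against 31.9 and 29.0 FPKM with the control vector, a log2 change of -2.11 (adjusted p = 3.8e-06). In bulk RNA, fewer cells in a stage of the cycle and less RNA per cell in that stage cannot be told apart, here and for every cell cycle gene. On the 4 libraries at 4 h alone, 5 members of the cluster were called.

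Genes of G1 and S phase were examined next. Of 7 G1 and S phase cyclins 3 were lower, 42.9% beside 6.44% called among all genes tested. CLB6 had 6.61 and 7.21 FPKM with the YOX1 vector against 13.8 and 14.7 FPKM with the control vector (log2 change -0.99, adjusted p = 0.0019). CLN1 fell by 0.57 and PCL2 by 0.55 on the log2 scale. CLN2 and CLB5, close relatives of these, had log2 changes of 0.15 and -0.22 and were not called. On the 4 libraries at 4 h alone 1 of the 7 cyclins was called, and CLN1 and PCL2 did not pass (adjusted p = 0.0778 and 0.0585). Of 8 regulators of SBF and MBF, the factors that drive G1 transcription, MSA1 was lowest, with 13.6 and 14 FPKM with the YOX1 vector against 33.5 and 33.0 FPKM with the control vector (log2 change -1.26, adjusted p = 0.000225), and SWI4 and NRM1 were also lower. Of 30 replication fork proteins 1 was lower (CTF4, log2 change -0.28) and 1 was higher (PRI1, a primase subunit, 0.30), with a median of -0.05. That share of 6.67% lies near the 6.44% called among all genes tested. None of the 10 histone genes passed the test, and HHT2 and HHF2, which encode core histones, had log2 changes of -0.04 and -0.03. Of 19 spindle and cohesin genes 5 were lower (26.3%), among them TUB4, the gamma-tubulin, by 0.72 and the cohesin subunit MCD1 by 0.51 on the log2 scale. Without replicate 1 of the control vector, or without replicate 2 of the YOX1 vector, 2 of the 19 were called, and 1 on the 4 libraries at 4 h alone. PRI1 and NRM1 were not called once any library at 4 h was left out, and CTF4 was called in 1 of the 4 cases.

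**Figure D4:**
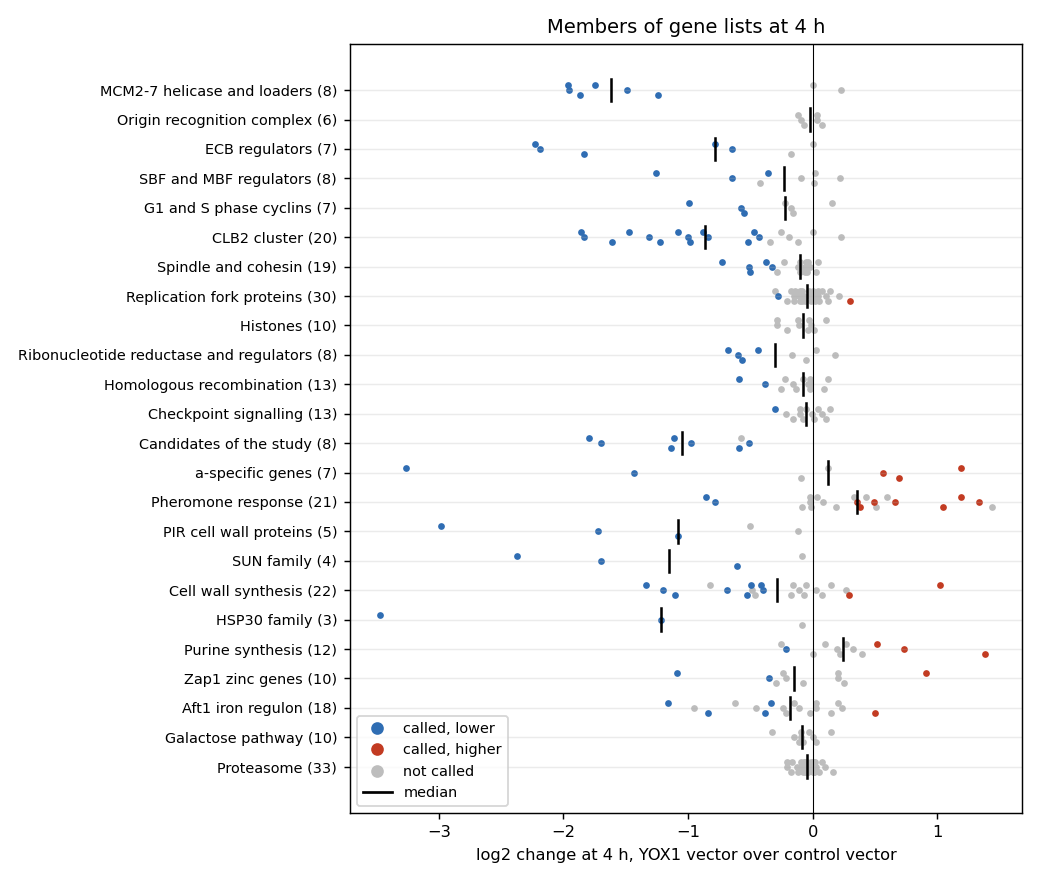
Log2 change at 4 h (YOX1 vector over control vector) of each tested member of 24 gene lists, 1 point a gene, with the number tested in brackets and a bar at the list's median. Blue points are called lower, red points higher and grey points not called; the medians of the helicase list, the CLB2 cluster and the PIR and SUN families lie to the left, pheromone genes lie mostly to the right, and origin recognition, proteasome and galactose genes lie around 0.

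All 4 ribonucleotide reductase genes, whose product HU inhibits, were lower. RNR4, a small subunit, had 3189 and 3473 FPKM with the YOX1 vector against 5067 and 5274 FPKM with the control vector, a log2 change of -0.68 ± 0.066 (SE, adjusted p = 0.000615). RNR2, the other small subunit, had 2580 and 2641 FPKM with the YOX1 vector against 3969 and 3696 FPKM with the control vector, a log2 change of -0.60 (adjusted p = 0.000853). The damage-inducible large subunit RNR3 had 49.4 and 56.7 FPKM with the YOX1 vector against 65.7 and 74.8 FPKM with the control vector, a log2 change of -0.44 (adjusted p = 0.033). RNR3 stood far above its untreated level in both strains, since it was between 4.25 and 4.65 FPKM in the 4 untreated libraries. RNR1, the main large subunit, had a log2 change of -0.56 (adjusted p = 0.00943). The inhibitors and regulators SML1, DIF1, RFX1 and HUG1 were not called. On the 4 libraries at 4 h alone none of the 4 passed (adjusted p = 0.0572 to 0.196), and 2 were called without replicate 2 of the control vector or without replicate 1 of the YOX1 vector. Of 13 checkpoint genes 1 was lower, a share of 7.69% that lies near the 6.44% called among all genes tested. It was DUN1, the kinase that acts on the RNR genes. DUN1 had 51.3 and 55.7 FPKM with the YOX1 vector against 64.0 and 64.2 FPKM with the control vector (log2 change -0.30, adjusted p = 0.00673). Of 13 homologous recombination genes 2 were lower (15.4%). RAD54 fell by 0.59 and its relative RDH54 by 0.38 on the log2 scale. RDH54 kept its call in 1 of the 4 cases of a library left out, and DUN1 in 3, losing it without replicate 1 of the YOX1 vector (adjusted p up to 0.0549).

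The study singled out 8 genes as candidates downstream of YOX1, partly from these same libraries, so their direction here is not independent evidence. ICS2, of unknown function, had 12 and 13.4 FPKM with the YOX1 vector against 46.8 and 43.3 FPKM with the control vector (log2 change -1.79, adjusted p = 5.71e-05). ALD6, the cytosolic acetaldehyde dehydrogenase, had 271 and 259 FPKM with the YOX1 vector against 516 and 499 FPKM with the control vector (log2 change -0.98, adjusted p = 0.000113). Both separated fully, and UTH1, MMR1, which carries mitochondria into the bud, YML131W, RAD54 and RTC1 were lower too, by 0.51 to 1.70 on the log2 scale. PRY3 had 16.6 and 15.8 FPKM with the YOX1 vector against 21.2 and 26.8 FPKM with the control vector and did not pass (adjusted p = 0.0725). ALD5, a mitochondrial aldehyde dehydrogenase, fell by 0.34, a call kept in 1 of the 4 cases of a library left out, and the other 4 members of that family were not called.

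Some of the deepest decreases were in genes of the cell surface. YRO2, a membrane protein related to the heat shock protein Hsp30, had 36.8 and 44.9 FPKM with the YOX1 vector against 446 and 446 FPKM with the control vector, an 11.1-fold decrease (log2 change -3.47 ± 0.12, SE, adjusted p = 2.73e-06). HSP150, a wall mannoprotein with internal repeats, had 159.6 and 204 FPKM with the YOX1 vector against 1297 and 1487 FPKM with the control vector (log2 change -2.98, adjusted p = 8.67e-05). PRY1, a secreted sterol-binding protein, had 33.5 and 36.8 FPKM with the YOX1 vector against 249 and 313 FPKM with the control vector (log2 change -3.00, adjusted p = 1.95e-05). In each of these the higher YOX1 library held less than 1 in 5 of the lower control library. YGP1, a secreted glycoprotein, had 119 and 164 FPKM with the YOX1 vector against 976 and 1013 FPKM with the control vector, a log2 change of -2.86 (adjusted p = 5.04e-05). NCA3, of the SUN family of wall proteins, had 26.2 and 26.7 FPKM with the YOX1 vector against 136 and 137 FPKM with the control vector, a log2 change of -2.37 (adjusted p = 9.53e-07).

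Relatives of these genes did not all move with them. In the PIR family 3 of 5 were lower (HSP150, PIR3 and YJL160C), and in the SUN family 3 of 4, with UTH1 at 419.9 and 381 FPKM with the YOX1 vector against 1235 and 1284 FPKM with the control vector (log2 change -1.70) and SUN4 at -0.61 (adjusted p = 0.0444). YJL160C and SUN4 each kept the call in 1 of the 4 cases of a library left out (adjusted p up to 0.084 and 0.172), so that both families then had 2 lower members. MRH1, the nearest relative of YRO2, fell by 1.22 on the log2 scale, while HSP30 itself had 18.1 and 21.9 FPKM with the YOX1 vector against 18.4 and 22.9 FPKM with the control vector. PRY2 had a log2 change of 0.52 and was not called (adjusted p = 0.079). Of 22 genes of wall synthesis 8 were lower and 2 were higher, 45.5% beside 6.44% called among all genes tested. The lower ones included the chitin transglycosylases CRH1 (log2 change -1.34) and UTR2 (-0.69), the structural proteins SED1 (-1.11) and PST1 (-1.20), and FKS1, the glucan synthase (-0.52). On the 4 libraries at 4 h alone 3 of the 22 were lower and 1 was higher, and UTR2 was not called (adjusted p = 0.0754). In the other direction, CWP1, a mannoprotein of the wall, had 287 and 273 FPKM with the YOX1 vector against 134 and 132 FPKM with the control vector (log2 change 1.03, adjusted p = 0.000182), and TIR1, a mannoprotein known from cold and low oxygen, had 20.6 and 19.4 FPKM with the YOX1 vector against 6.39 and 8.07 FPKM with the control vector (log2 change 1.33, adjusted p = 0.0128). The call on TIR1 was lost without any of 3 of the 4 libraries at 4 h, to an adjusted p of up to 0.0839.

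The a-specific genes, all targets of Mcm1, split. MFA2, a gene for the a-factor pheromone, had 210.5 and 175 FPKM with the YOX1 vector against 2120 and 1530 FPKM with the control vector (log2 change -3.27 ± 0.20, SE, adjusted p = 4.84e-05). MFA1, its duplicate, had 335 and 229.7 FPKM with the YOX1 vector against 844 and 632 FPKM with the control vector (log2 change -1.44, adjusted p = 0.0367). The strains did not overlap in either gene. Both genes are short, the intervals imply as few as 13 and 14 fragments in a library, and MFA1 was not called once any library at 4 h was left out (adjusted p up to 0.193). BAR1, the protease that destroys alpha-factor, went the other way, with 45.3 and 34.1 FPKM with the YOX1 vector against 16.6 and 15.8 FPKM with the control vector (log2 change 1.19, adjusted p = 0.00378). AGA2, an agglutinin subunit, had a log2 change of 0.69 and STE2, the alpha-factor receptor, of 0.57 (adjusted p = 0.00228 and 0.0142). On the 4 libraries at 4 h alone none of these 3 was called (adjusted p = 0.0663 for BAR1, 0.0751 for AGA2 and 0.148 for STE2), and STE2 kept its call in 2 of the 4 cases of a library left out. STE6, the exporter of a-factor, had 48.2 and 44.1 FPKM with the YOX1 vector against 42.9 and 39.3 FPKM with the control vector and was not called (adjusted p = 0.419). None of the 4 alpha-specific genes was called.

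Of 21 genes of the pheromone response 7 were higher and 2 were lower, 42.9% beside 6.44% called among all genes tested. Their median log2 change was 0.36. AGA1, the anchor of the agglutinin, had 22.6 and 15.6 FPKM with the YOX1 vector against 6.93 and 6.39 FPKM with the control vector (log2 change 1.34, adjusted p = 0.00673). FUS1, needed for cell fusion, had 15.1 and 14.7 FPKM with the YOX1 vector against 5.86 and 5.75 FPKM with the control vector (log2 change 1.19, adjusted p = 0.000511). SST2, which turns the pheromone signal off, had 50.8 and 41.8 FPKM with the YOX1 vector against 22.6 and 19.9 FPKM with the control vector (log2 change 1.05, adjusted p = 0.000504). These targets of the pathway were high in both YOX1 libraries. The kinases FUS3 and KSS1, the factor STE12 and its partner KAR4 were also higher, by 0.36 to 0.66 on the log2 scale. STE12 was not called on the 4 libraries at 4 h alone (adjusted p = 0.17). GPA1, the G protein subunit that holds the pathway off, was lower, with 32.8 and 31.6 FPKM with the YOX1 vector against 59.5 and 55.2 FPKM with the control vector (log2 change -0.86, adjusted p = 8.26e-05), as was FAR1. TEC1, the partner of Ste12 in filamentous growth, had 79.5 and 67.2 FPKM with the YOX1 vector against 38.9 and 34.4 FPKM with the control vector (log2 change 0.94, adjusted p = 0.000611). On the 4 libraries at 4 h alone, 1 gene of the list was called higher and 1 lower. Without replicate 1 of the YOX1 vector 4 were higher, and without replicate 1 of the control vector 1 was lower.

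Several of the higher genes of this group carry the letters of the pheromone response element, to which Ste12 binds. TGAAACA, searched on both strands in the 500 bases before the start codon, was found before 24.8% of the 129 higher genes, 12.1% of the 290 lower genes and 11.8% of all 5892 genes with a window. The element is in capitals in the windows of 3 of the genes above, each on the strand of the gene.
FUS1, chrIII:71609-71629, plus strand: gcgatgaTGAAACAaacatga
AGA1, chrXIV:703490-703510, plus strand: aattttcTGAAACAatattaa
SST2, chrXII:1041598-1041618, minus strand: tcaatttTGAAACAatgatcc
It begins 187 bases before the start codon in FUS1, with a further copy at 160 bases, 202 bases before it in AGA1 and 245 bases before it in SST2. Genes that were lower carry the same letters too. They lie 365 and 195 bases before the start codon in MFA2, 312 in MFA1, 172 in SPO12 and 204 in DBF2.

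Among metabolic genes, ADE17, an enzyme of the last steps of purine synthesis, had 60.1 and 65.7 FPKM with the YOX1 vector against 23.7 and 22 FPKM with the control vector (log2 change 1.38, adjusted p = 0.000615). SHM2, the cytosolic serine hydroxymethyltransferase, and ADE1 were higher by 0.74 and 0.52 on the log2 scale, ADE16, the duplicate of ADE17, was lower (log2 change -0.21), and the other 8 purine genes were not called. Of these calls only ADE17 held without each single library at 4 h: SHM2 kept its call in 1 of the 4 cases, and ADE1 and ADE16 in 0. GCV1, GCV2 and GCV3, which encode the glycine cleavage system, were all higher, by 0.66 to 0.83 on the log2 scale. Their adjusted p was 0.0258, 0.0374 and 0.0269, and this set was picked after its values were seen. Of the zinc genes, ZPS1, a wall protein, had 40.8 and 41.5 FPKM with the YOX1 vector against 83.8 and 88.3 FPKM with the control vector (log2 change -1.09, adjusted p = 8.67e-05), and ADH4, an alcohol dehydrogenase, had 133 and 143 FPKM with the YOX1 vector against 71.9 and 69.5 FPKM with the control vector (log2 change 0.91, adjusted p = 4.53e-05). Those 2 moved in opposite directions within 1 regulon. Of 18 iron genes 4 were lower, led by the siderophore transporters ARN1 (log2 change -1.16) and SIT1 (-0.84). HMX1 was higher, a call lost once any library at 4 h was left out. With HMX1 the share called was 27.8%, beside 6.44% of all genes tested. COR1, a core subunit of respiratory complex III, had 222 and 249 FPKM with the YOX1 vector against 477 and 481 FPKM with the control vector (log2 change -1.07, adjusted p = 8.07e-05), and among the other 30 genes of the respiratory chain and ATP synthase ATP4 alone was called, and it too was lost in each of those cases.

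Outside the lists, 4 more genes stood among the largest changes. NDL1, a regulator of the dynein pathway, had 5.26 and 7.51 FPKM with the YOX1 vector against 29.5 and 25.3 FPKM with the control vector (log2 change -2, adjusted p = 0.000665). PHO3, an acid phosphatase, had 31.1 and 37.9 FPKM with the YOX1 vector against 105 and 131 FPKM with the control vector (log2 change -1.78, adjusted p = 0.000797). Both were lower in each YOX1 library. PTR2, the di- and tripeptide transporter, had 26.5 and 28.8 FPKM with the YOX1 vector against 12.2 and 10.5 FPKM with the control vector (log2 change 1.18, adjusted p = 0.0003). YLR042C had 125 and 90.8 FPKM with the YOX1 vector against 32.9 and 33 FPKM with the control vector (log2 change 1.62, adjusted p = 0.000464). In these last genes the YOX1 libraries were the higher ones.

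Many lists held few calls or none, beside 6.44% called among all genes tested. None of 10 galactose genes, 33 proteasome genes, 19 autophagy genes or 11 arginine genes was called, with medians between -0.09 and 0.06. Of 66 mitochondrial ribosomal proteins 1 was higher, and of 53 ribosome biogenesis factors 2 were lower. None of 14 genes of the glyoxylate cycle was called, though their median was 0.33; their members varied between the 2 YOX1 libraries, as with MLS1, malate synthase, at 4.68 and 30.1 FPKM. Without replicate 1 of the YOX1 vector 4 of the 14 were higher and the median was 0.76, and without replicate 2 none was called and the median was -0.02. Among 136 cytosolic ribosomal protein genes 1 was higher (RPL22B, log2 change 0.51, not called once any library at 4 h was left out) and 1 was listed lower (RPL39). RPL39 overlaps BUD19, which took nearly all fragments of that locus (1688 and 1792 FPKM with the YOX1 vector against 1860 and 1589 FPKM with the control vector), and RPL39 was already listed near 0 in the untreated YOX1 libraries, so its value depends on how Cufflinks divided the locus. The genes YGR204C-A (log2 change -6.14), DGR1 (3.76) and YNL338W (3.18) also rank high in size, but the intervals imply at most 5, 7 and 36.7 fragments in any library at 4 h, and YGR204C-A and YNL338W were not called once any library at 4 h was left out.

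The effect at 4 h was next compared with that before galactose and at 2 h. Against the untreated difference between the strains, 138 genes had a more negative effect at 4 h (2.03%) and 37 a more positive one (0.544%), by a test of the difference itself. Genes that were lower at 4 h had a median log2 change of -0.03 in untreated cells and of -0.34 at 2 h. At 2 h, 119 genes were called lower (1.75%) and 17 higher (0.25%). Of these, 115 were among the 304 lower genes of 4 h (96.6% of the earlier calls and 37.8% of the later ones) and 15 among the 134 higher genes (88.2% and 11.2%). The change was farther from 0 at 4 h than at 2 h in 289 of the 304 decreases and in 125 of the 134 increases, a direction that the choice of genes by their 4 h values favours. Helicase genes had already moved at 2 h. MCM2 stood at log2 0.11 before galactose, -1.80 at 2 h and -1.87 at 4 h, whereas MCM7 stood at 0.01, -0.92 and -1.49.

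A test of the 4 h effect against the 2 h effect called 3 genes with a more negative effect (0.0441%) and 1 with a more positive effect (0.0147%), and 461 genes had an unadjusted p under 0.05. In NCA3 the effect was more negative by 1.58 ± 0.090 (SE, adjusted p = 0.000742). The libraries with the YOX1 vector held 26.0 and 28.7, 25.9 and 26.7, and 26.2 and 26.7 FPKM at 0 h, 2 h and 4 h, and those with the control vector 30.4 and 30.2, 46.0 and 44.0, and 136 and 137 FPKM. The strain with the YOX1 vector thus stayed at its untreated level of NCA3 while the control strain climbed. In YRO2 the effect was more negative by 1.48 (adjusted p = 0.0392). With the YOX1 vector YRO2 had 23 and 30.3 FPKM at 2 h and 36.8 and 44.9 FPKM at 4 h, both under its untreated level of 136 and 130 FPKM. With the control vector YRO2 had 132 and 128 FPKM untreated, 109 and 101 FPKM at 2 h and 446 and 446 FPKM at 4 h. ZPS1 was more negative by 0.93 and ADH4 more positive by 0.70 (adjusted p = 0.0392 for each). ADE17, with 23.3 and 25.5 FPKM with the YOX1 vector and 26.9 and 20.5 FPKM with the control vector at 2 h, differed by 1.36 between the times but did not pass (adjusted p = 0.128). RNR4 had log2 changes of -0.14 at 2 h and -0.68 at 4 h, a difference that did not pass (adjusted p = 0.191). With a pseudocount of 0.1 in place of 1, 1 gene was called more negative and 0 more positive.

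**Figure D5:**
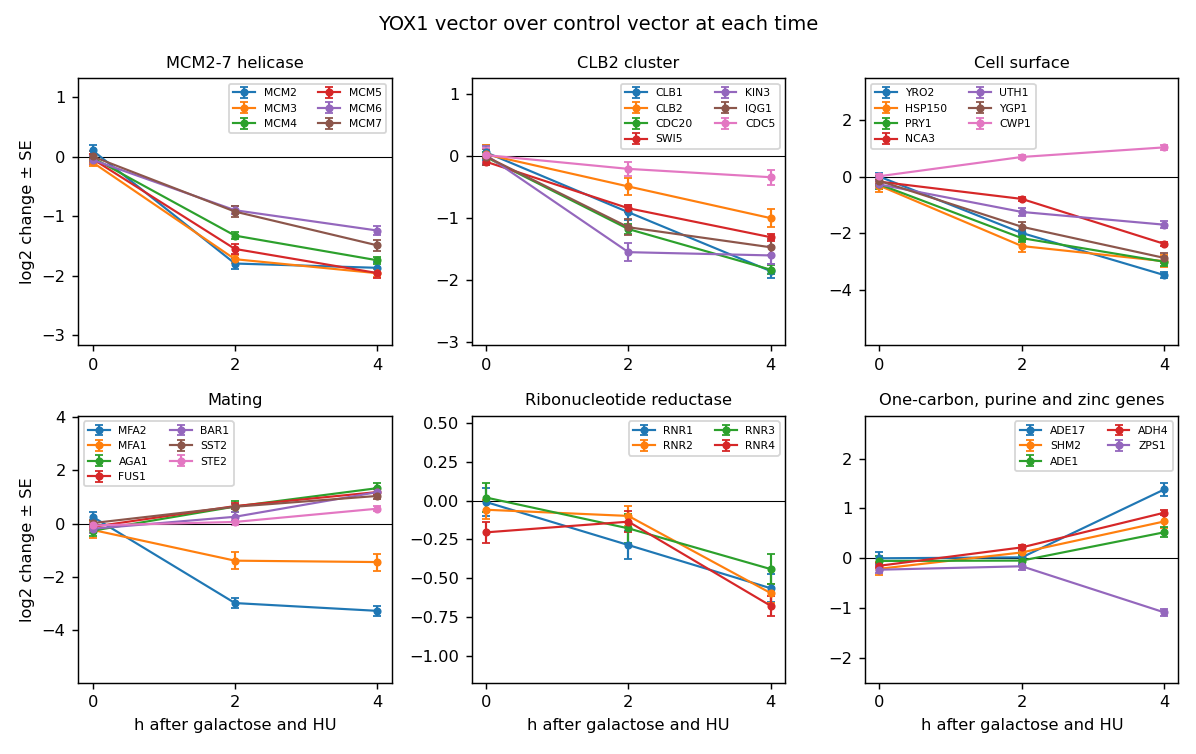
Log2 change (YOX1 vector over control vector, ± SE) at 0 h, 2 h and 4 h after galactose and HU for named genes of 6 groups, each from 2 libraries a strain and time. MCM2 is low by 2 h and stays low (-1.80 and -1.87), whereas the values of NCA3, ZPS1, ADE17 and ADH4 are farther from 0 at 4 h than at 2 h.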

How the data were processed

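Libraries depleted of ribosomal RNA were made with a TruSeq kit that keeps no strand, and sequenced as 50 bp reads. TopHat2 placed the reads on sacCer3, and Cufflinks with Cuffdiff gave the levels. The authors deposited FPKM with an interval and a status for 7126 genes per library; FPKM are not counts, so no count model was run. The methods call the 2 libraries of a group independent biological replicates. Fragment numbers were read from the intervals, taken as 2 SDs on either side. Genes with status OK in all 4 libraries at 4 h and a mean of at least 1 FPKM there were tested (42 others were not completed). FPKM were divided by median-of-ratios factors, and 1 was added before log2, which understates changes of low genes. Values of single libraries are as deposited. limma 3.58.1 (R 4.3.3) fitted 6 group means to all 12 libraries (6 residual degrees of freedom) with empirical Bayes and trend; tests were two-sided, calls at a Benjamini-Hochberg adjusted p under 0.05. The fit was tested on simulated data.

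Named genes were YOX1, YHP1, MCM1, URA3, GAL1 and HUG1, the 20 largest decreases and 12 largest increases with at least 10 FPKM and no overlap, up to 5 called members of each list (the 2 most abundant where fewer than 2 were called), and up to 6 genes of each difference test. Other genes were named after their values were seen. Lists, members and tests were chosen with earlier results of these data known. Lists are described by counts and medians only. Alternatives changed the pseudocount, filters, status, scaling, moderation, block and libraries. Some results are not reported here.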

Additional observations from a re-analysis of the deposited data

Results flagged for a closer look

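The effect of the YOX1 vector differed between times, by a test of the difference itself. Between 4 h and 2 h it was more negative in 3 genes and more positive in 1: NCA3 by -1.58, YRO2 by -1.48 and ZPS1 by -0.93, and ADH4 by 0.70 on the log2 scale. Between 4 h and the untreated cultures it was more negative in 138 genes and more positive in 37. The genes with the smallest p there were YOX1 (4.36), NCA3 (-2.19), YRO2 (-3.46), MCM3 (-1.87), MCM4 (-1.73) and DBF2 (-2.03). With 2 libraries a group, no library could be tested as far from its group. What sets these differences in time was not tested.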

How the results depend on the processing

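None of the named genes that were called changed sign under the alternatives run. On the 4 libraries at 4 h alone, limma called 78 lower and 16 higher genes; 72 and 14 calls had at least a 2-fold change; and without scaling 208 genes were higher. Leaving out each library at 4 h in turn gave 171 to 193 lower and 52 to 63 higher genes, with the lone sample of a group taken to vary like the others. For the effect at 4 h against 2 h, the more negative genes numbered 1 with a pseudocount of 0.1, 1 without scaling and 1 to 3 with a library left out, and the more positive ones 0 with a pseudocount of 0.1 and 0 to 2 with a library left out. Against 0 h, leaving out a library gave 79 to 137 more negative genes (79 without replicate 1 of the untreated control) and 11 to 79 more positive genes (79 without replicate 2 of the untreated YOX1 vector). With a replicate block the calls at 4 h were 300 lower and 130 higher, with 1 more negative and 0 more positive gene for 4 h against 2 h; the numbers share no stated origin, and deviations of same-numbered libraries correlated at -0.247 to 0.28 over 15 pairs of groups. Of 120 named genes that were called 71 lost their call on the 4 libraries alone, 18 without scaling and 39 to 46 with a library left out. Causes were not tested. Depth limits short and rare transcripts, and 2 libraries a group limit every call.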

Other observations

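Some sets outside the lists above held further calls, beside 6.44% of all genes tested. They were picked after their values were seen, so their counts are descriptions, and the medians of the chitin, septin and mannosyltransferase sets were 0.02, -0.08 and -0.04. GFA1, the first enzyme of the route to chitin, had 44.2 and 46.7 FPKM with the YOX1 vector against 131 and 126 FPKM with the control vector (log2 change -1.52). Of 11 genes of chitin synthesis 4 were lower, GFA1, CHS1, CHS2 and CHS7, and the chitin synthase of the lateral wall, CHS3, had 54.5 and 51.8 FPKM with the YOX1 vector against 50.4 and 47.6 FPKM with the control vector and was not called. Of 19 septin, polarity and bud neck genes 6 were lower, among them the scaffold BEM1 (log2 change -0.81) and the kinase KCC4 (-0.77), while none of the 5 septins was called. Of 14 mannosyltransferase and transport genes 3 were lower, with OCH1, which starts the outer chain, at -0.63, and ANP1 was higher (0.22).

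The subtelomeric helicase genes YRF1 were low in 4 of 8 members, by 0.37 to 0.43 on the log2 scale, and the other 4 had log2 changes of -0.12 to -0.10. Their sequences are nearly identical, so the division of fragments among them is uncertain.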
